A study of Mus musculus with 4 samples.

Results

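Cd5l, Timd4, Gata6, F5, F10, Alox15, Garnl3, Prg4 and Icam2 are marker genes of the macrophages that live in the fluid of the body cavities, and their expression was compared between endothelial cell (EC) preparations of mouse lungs after pneumonectomy (PNX) and after sham surgery. The 9 genes were chosen by name as known cavity macrophage markers and are 9 of the 24063 gene symbols measured. PNX is the surgical removal of lung tissue on one side, after which the remaining lung grows. RNA sequencing was run on 4 libraries, 2 from lungs 7 days after PNX and 2 from sham-operated lungs, all from C57BL6 mice (C57BL6J in the methods of the study) of 8 weeks, with each library pooled from 2 mice. Sham surgery opened the chest without removing lung, and its time before cell isolation is not clearly given in the sources used here, so a difference between the groups may include one in time after surgery. Ketamine and xylazine anaesthesia and meloxicam, an anti-inflammatory analgesic given after the operation, are part of the surgical methods of the study, and no genetic change was named for the mice of either group. The cells were taken with magnetic beads against CD31, the product of Pecam1, a selection that also keeps other cells with CD31 at their surface, and the methods of the study describe a check by flow cytometry for CD31+, VE-Cadherin+ and CD45- cells. With pools of 2 mice, the spread between single animals cannot be seen. The p-values rest only on the spread between the 2 libraries of a group, which the test pools in large part over all genes. That spread was small, with a median SD within a group of 0.0312 on the log2 scale. The mean chi-square per gene was 1.74 between the sham libraries and 1.51 between the PNX libraries. Between same-numbered libraries of the 2 groups it was 128 and 114. Very small p-values thus say little about the spread between animals.

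Large macrophages of the pleural and peritoneal cavities are long-lived resident cells whose identity depends on the transcription factor Gata6, which is switched on by retinoic acid, in part from the mesothelial lining. They take up dead cells through Timd4, secrete the scavenger protein Cd5l, carry Icam2 at the surface, oxidise lipids with Alox15 and make the clotting factors F5 and F10. The pleural cavity surrounds the lung and is opened in a pneumonectomy. None of the 9 genes is restricted to these cells: Icam2 is an adhesion molecule of endothelium, Prg4 and Gata6 are made by mesothelial cells, Alox15 by eosinophils, F5 by megakaryocytes, and Cd5l and Timd4 also by macrophages of liver and spleen.

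The promoter windows of Cd5l, Timd4, F5 and F10 are shown because these 4 genes rose after PNX and because Gata6 and retinoic acid receptors act in cavity macrophages. Each window runs from 250 bases before to 50 bases after the transcription start in RefSeq, assembly GRCm38.p6, and is written 5′ to 3′ on the strand of the gene. Capitals mark the core letters GATAA, to which GATA factors can bind, and AGGTCA, the half-site of nuclear receptors, on either strand.
Cd5l, chr3:87357631-87357930, plus strand: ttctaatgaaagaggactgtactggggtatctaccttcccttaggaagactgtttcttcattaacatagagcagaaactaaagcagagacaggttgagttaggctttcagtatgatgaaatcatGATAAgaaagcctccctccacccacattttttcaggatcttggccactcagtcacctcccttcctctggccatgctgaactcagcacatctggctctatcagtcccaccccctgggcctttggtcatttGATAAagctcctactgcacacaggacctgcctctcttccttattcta
Timd4, chr11:46810549-46810848, plus strand: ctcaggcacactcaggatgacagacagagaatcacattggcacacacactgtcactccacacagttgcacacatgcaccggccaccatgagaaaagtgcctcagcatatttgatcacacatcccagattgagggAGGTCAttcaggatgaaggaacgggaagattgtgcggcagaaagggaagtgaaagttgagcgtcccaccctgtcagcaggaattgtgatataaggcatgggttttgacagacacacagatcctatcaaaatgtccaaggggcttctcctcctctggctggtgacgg
F5, chr1:164151585-164151884, plus strand: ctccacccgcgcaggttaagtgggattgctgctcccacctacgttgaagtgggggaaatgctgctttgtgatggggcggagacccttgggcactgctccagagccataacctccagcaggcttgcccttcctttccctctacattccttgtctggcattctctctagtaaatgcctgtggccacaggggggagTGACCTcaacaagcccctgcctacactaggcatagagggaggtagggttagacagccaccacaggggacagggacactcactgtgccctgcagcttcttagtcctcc
F10, chr8:13037058-13037357, plus strand: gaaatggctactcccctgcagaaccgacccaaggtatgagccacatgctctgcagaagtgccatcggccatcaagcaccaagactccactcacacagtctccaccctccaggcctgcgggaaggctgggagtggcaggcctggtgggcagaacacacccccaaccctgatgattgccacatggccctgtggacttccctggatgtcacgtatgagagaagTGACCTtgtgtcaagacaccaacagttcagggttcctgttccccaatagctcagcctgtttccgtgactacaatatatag
GATAA was found 2 times in the Cd5l window, at bases 125 and 254 counted from its 5′ end, and in no other promoter window of the 5 genes that had an entry. AGGTCA was found in the windows of Timd4 (base 135, plus strand), F5 (base 194, minus strand) and F10 (base 221, minus strand), and GAGGAA, a core of the macrophage factor PU.1 that overlaps neither motif, only in that of Cd5l (base 185, minus strand). By number, 1 of 6 promoters of these genes held GATAA, 1 of 6 held GAGGAA and 3 of 6 held AGGTCA. Of all 32851 promoter windows of that length, 25.4% held GATAA, 28.3% held GAGGAA and 16.3% held AGGTCA. A match of letters is a description and does not show that a factor binds there.

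Depth ranged from 41367438 to 50952879 counts per library with 1 transcript used per gene, and the limit set by 3 counts was 0.0589 to 0.0725 CPM. Normalized counts are read counts put on a common library size (TMM scaling), and FPKM values, as deposited, are also corrected for transcript length and are the only scale on which levels of different genes are compared. A gene was called higher or lower after PNX when its log2 fold change was beyond 1 and its adjusted p was under 0.01 (edgeR's quasi-likelihood test, Benjamini-Hochberg adjustment over 16208 genes). The design names male mice, yet all 44 chromosome Y genes had 0 counts in every library and Xist, the X-inactivation RNA, had between 29890 and 36875 counts. In every library the isolated cells carried the endothelial genes Pecam1 (90191 to 91116 normalized counts) and Cdh5, and also Ptprc, the gene of CD45 (11422 to 11665 normalized counts).

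After PNX, 6 of the 9 cavity macrophage genes were called higher: Cd5l, Alox15, Prg4, F5, Timd4 and F10. Cd5l stood far above the others with a 46.9-fold rise, while the other 5 rose by between 2.77-fold and 4.27-fold. None was called lower, with 5.90% of all tested genes called higher and 1.66% called lower. Gata6, Garnl3 and Icam2 stayed within the fold threshold, at log2 fold changes of 0.64, 0.22 and -0.08. With the adjusted p alone and no fold threshold, 8 of the 9 were higher and 1, Icam2, was lower, where 29.3% of all tested genes were higher and 27.8% lower. All 9 genes passed the filter on low counts. In 8 genes both PNX libraries lay above both sham libraries, and in Icam2 both lay below. The share of all tested genes separated in this way was not counted, so this separation is not read as particular to the 9 genes. The median log2 fold change over the 9 genes was 1.58, and that over all tested genes was 0.00. In bulk samples, more cells of a type and more RNA per cell cannot be told apart.

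**Figure D1:**
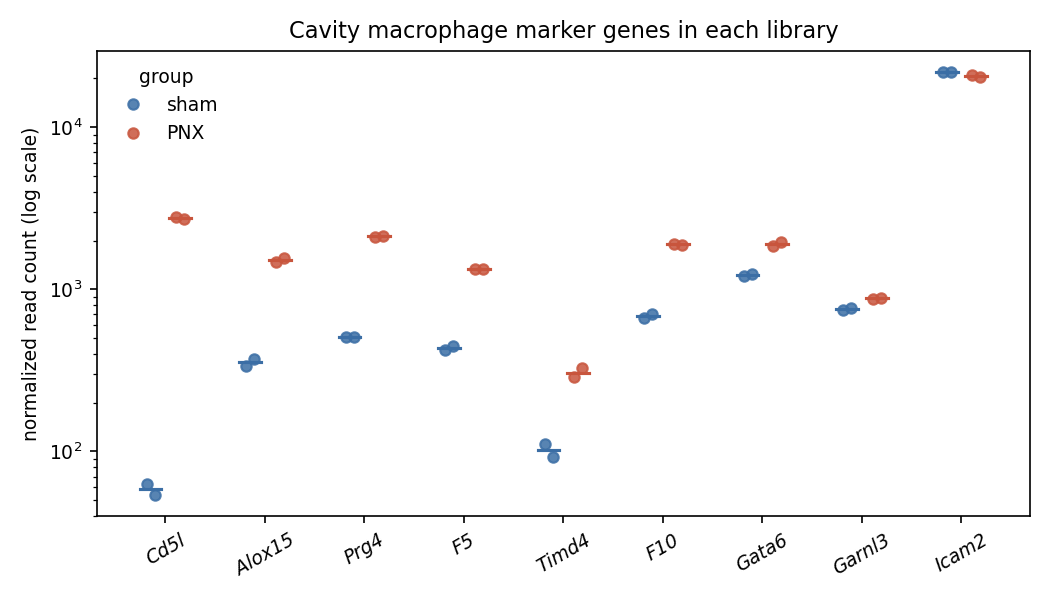
Normalized read counts (log scale) of the 9 cavity macrophage genes in the 2 sham and 2 PNX libraries, each point 1 library and each short bar the mean of a group. The Cd5l points move from 54.0 and 63.4 in sham to 2731 and 2808 after PNX, while the Icam2 points of both groups lie close together, between 20425 and 21940.

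Gata6 is the transcription factor that sets the cavity macrophage programme. It had 1201 and 1252 normalized counts in sham and 1853 and 1971 after PNX. Both PNX values were above both sham values. Its mean went from 1227 ± 35.7 to 1912 ± 83.3 (SD, n = 2 libraries per group), a log2 fold change of 0.64 (SE 0.043, 95% interval 0.55 to 0.73, adjusted p = 1.7e-20), a difference above the spread of the libraries but under the fold threshold. Gata6 lies on chromosome 18, and its exons share 93 bases with those of 1010001N08Rik on the opposite strand. That RNA had 60.7 and 63.2 normalized counts in sham and 101 and 98.1 after PNX (log2 fold change 0.69, adjusted p = 4.0e-04), a small number beside the counts of Gata6. Whether the counting used strand is not stated, so reads in shared bases could not be assigned.

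Timd4 is the surface receptor for phosphatidylserine on dying cells (chromosome 11, 46810786 to 46844333, genome build mm10, as all positions here). It had 111 and 92.8 normalized counts in sham and 288 and 325 after PNX. The groups did not overlap. The rise from 102 ± 12.6 to 307 ± 26.5 was 2.99-fold, a log2 fold change of 1.58 (SE 0.12, 95% interval 1.34 to 1.82, adjusted p = 2.5e-18). Timd4 had the largest SE of the 9 genes.

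Icam2, the adhesion molecule that cavity macrophages share with endothelium (chromosome 11, 106377656 to 106388139), was by far the most abundant of the 9 genes. It had 21940 and 21843 normalized counts in sham and 20961 and 20425 after PNX. Both PNX libraries were lower, by a small step. The mean went from 21891 ± 68.0 to 20693 ± 379, a log2 fold change of -0.08 (SE 0.019, 95% interval -0.12 to -0.04, adjusted p = 1.6e-04). When libraries were scaled to 12 endothelial genes in place of all genes, the direction turned and Icam2 was at 0.13.

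Cd5l encodes a secreted protein of the scavenger receptor cysteine-rich family that protects macrophages from apoptosis (chromosome 3, 87357881 to 87371074). Sham replicates 1 and 2 had 63.4 and 54.0 normalized counts of Cd5l, and PNX replicates 1 and 2 had 2808 and 2731. The PNX libraries differed from each other by 2.80% of their mean, and the gap between the groups was far wider than either spread. From a mean of 58.7 ± 6.64 to one of 2770 ± 54.8, Cd5l rose by 5.55 on the log2 scale (SE 0.074, 95% interval 5.40 to 5.70, adjusted p = 5.9e-57). Among all tested genes Cd5l ranked 17 by log2 fold change. Of the 16 genes with a larger one, 5 averaged 100 normalized counts or more.

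Prg4 encodes lubricin, a mucin-like proteoglycan that keeps sliding surfaces from sticking (chromosome 1, 150449412 to 150466221). It had 505 and 507 normalized counts in sham and 2115 and 2125 after PNX. Within each group the libraries were almost equal, and the groups were far apart. The rise from 506 ± 1.44 to 2120 ± 7.19 was 4.19-fold, a log2 fold change of 2.07 (SE 0.049, 95% interval 1.97 to 2.17, adjusted p = 3.7e-43).

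The 3′ end of Prg4 overlaps that of Tpr, a nuclear pore gene on the opposite strand, over 524 bases of chromosome 1 (150449412 to 150449935). Tpr had 8898 and 9053 normalized counts in sham and 9048 and 9178 after PNX, a log2 fold change of 0.02 (SE 0.022, adjusted p = 0.39). On the FPKM scale Tpr was at 16.0 and 16.3 in sham and at 16.4 and 16.6 after PNX, above Prg4 in every library (1.60 and 1.61, then 6.76 and 6.78), so Prg4 counts near that end are uncertain. The tables list a longer Prg4 transcript of 4278 bases and a shorter one of 1884 bases that lacks 2394 internal bases, or 56.0% of the longer. In GENCODE the shorter transcript also runs 53 bases further into the Tpr overlap (150449816 to 150449868), but the lengths behind the deposited FPKM equal those of both transcripts carried on to the 3′ end of the RefSeq gene, where they share that end. On these lengths, counts on the longer transcript beyond those of the shorter come from the internal bases, and on the GENCODE ends Tpr reads could lower them. They were 91.5 and 87.7 normalized counts in sham and 717 and 754 after PNX, an 8.21-fold rise of the means, while counts on the shorter transcript went from 413 and 419 to 1397 and 1370, or 3.33-fold. The share of Prg4 counts from the internal bases was 18.1% (95% Wilson interval 15.2 to 21.5) and 17.3% (14.2 to 20.9) in the sham libraries and 33.9% (32.0 to 35.9) and 35.5% (33.4 to 37.7) in the PNX libraries. The intervals of the groups did not overlap, and they cover counting error only. No test was run on these differences of counts. If strand was not used, Tpr reads in the shared end would be counted on both transcripts. Such reads would lower the internal share and the fold rise of each transcript, and would weigh most in sham, where Prg4 is lower. The part of Tpr reads in these values was not tested. A share of 56.0% would be the value for even coverage of the longer transcript alone, and every library lay below it.

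**Figure D2:**
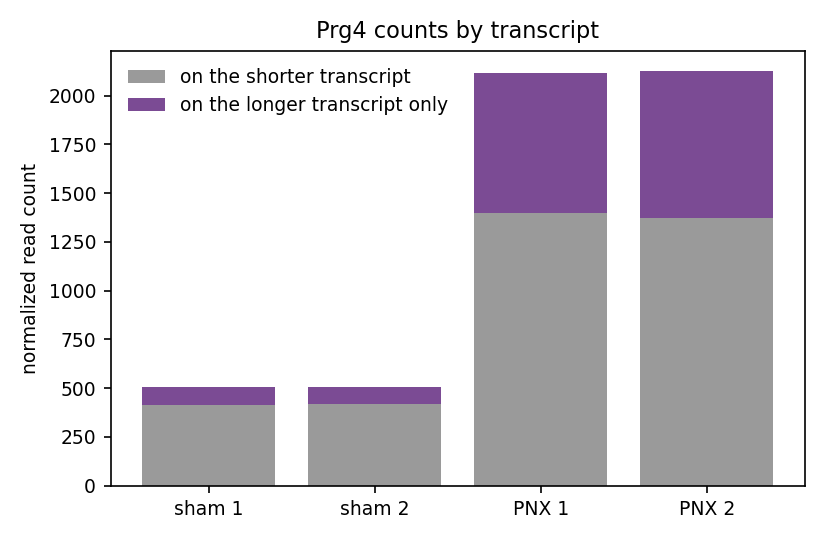
Normalized read counts of Prg4 in each library, with counts on the shorter transcript in grey and counts found only on the longer transcript in purple, the bar height being the total for the longer transcript. The purple part is 91.5 and 87.7 in sham and 717 and 754 after PNX.

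F5 and F10 encode coagulation factors V and X, the cofactor and the protease that together cut prothrombin. F5 (chromosome 1, 164151835 to 164220277) had 425 and 446 normalized counts in sham and 1337 and 1329 after PNX. F10 (chromosome 8, 13037308 to 13056676) had 667 and 704 in sham and 1917 and 1877 after PNX. In both genes the PNX libraries were close to each other and well above both sham libraries. F5 rose 3.06-fold, from 436 ± 15.3 to 1333 ± 5.74, a log2 fold change of 1.62 (SE 0.057, adjusted p = 3.6e-34). F10 rose 2.77-fold, from 686 ± 26.6 to 1897 ± 28.1, a log2 fold change of 1.47 (SE 0.048, adjusted p = 4.9e-36). F5 exons share 262 bases with Gm16548 on the opposite strand, an RNA that had 208 and 229 normalized counts in sham and 495 and 550 after PNX (log2 fold change 1.26, SE 0.087, adjusted p = 6.0e-20), so part of the F5 counts is uncertain.

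Alox15, a lipoxygenase that oxygenates polyunsaturated fatty acids and is used by resident macrophages in the clearance of dead cells, lies on chromosome 11 (70344147 to 70390538). It had 339 and 371 normalized counts in sham and 1474 and 1558 after PNX. All PNX values were above all sham values. The rise from 355 ± 22.8 to 1516 ± 59.2 was 4.27-fold, with a log2 fold change of 2.10 (SE 0.059, 95% interval 1.98 to 2.21, adjusted p = 3.0e-39), the second largest of the 9 genes.

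Garnl3, which encodes a protein with a GTPase-activating domain like that of Rap regulators, lies on chromosome 2 (32986225 to 33131859). It had 747 and 763 normalized counts in sham and 877 and 885 after PNX. The groups were separate but close. Its mean went from 755 ± 10.7 to 881 ± 5.08, a log2 fold change of 0.22 (SE 0.055, 95% interval 0.11 to 0.33, adjusted p = 3.6e-04), below the fold threshold.

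**Figure D3:**
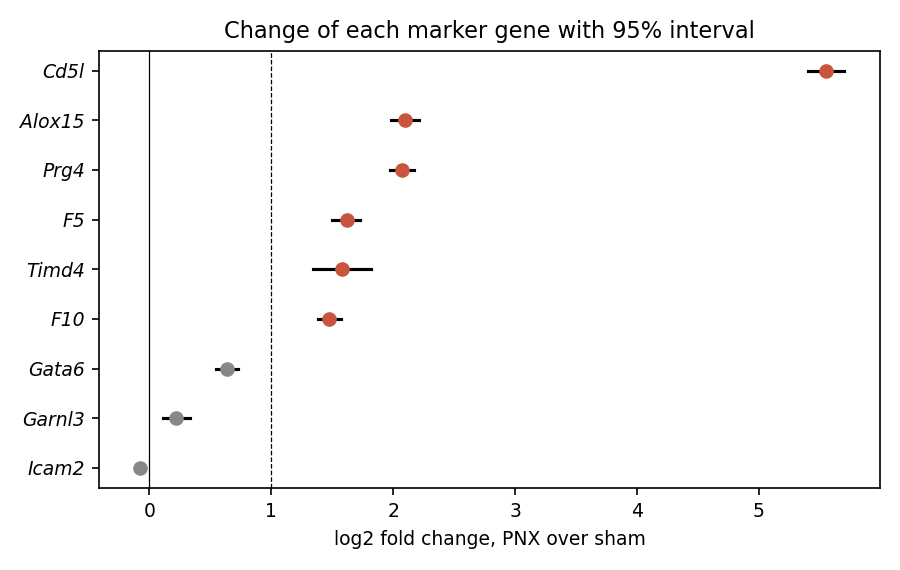
Log2 fold change, PNX over sham, of each cavity macrophage gene with its 95% interval, the solid line at 0 and the dashed line at the threshold of 1. Cd5l sits at 5.55, Alox15 and Prg4 at 2.10 and 2.07, F5, Timd4 and F10 between 1.47 and 1.62, and Gata6, Garnl3 and Icam2 below the dashed line.

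On the FPKM scale, which allows levels of different genes to be compared, the order of the 9 genes changed. In sham it ran from Icam2 (261 and 260 FPKM) down through Gata6 (5.11 and 5.33), F10, Garnl3, Alox15, Prg4, F5 and Timd4 to Cd5l (0.423 and 0.360), and no neighbours in that order overlapped between libraries. After PNX, Icam2 (251 and 244 FPKM) was still first and Cd5l (18.9 and 18.3) came second. F10 (9.74 and 9.51) followed, then Alox15 (8.35 and 8.81) and Gata6 (7.94 and 8.42), whose values overlapped, and then Prg4 (6.76 and 6.78), Garnl3, F5 and Timd4 (1.81 and 2.04). Cd5l thus went from the lowest of the 9 levels to the second highest. Without Icam2, the summed level of the other 8 genes was 16.9 and 17.4 FPKM in sham and 59.5 and 59.9 FPKM after PNX. Cd5l made up 2.29% of that sum in sham and 31.1% after PNX.

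Most markers of macrophages in general moved with the cavity macrophage genes. Of the 12 pan-macrophage genes analysed, 6 were called higher and 0 lower, their median log2 fold change was 1.05, and their summed level was 2001 and 1998 FPKM in sham and 2594 and 2577 FPKM after PNX. The complement genes C1qb (820 and 829 to 6510 and 6472 normalized counts, log2 fold change 2.98), C1qc (2.96) and C1qa (2.82) rose most. Lyz2, the most abundant of the list, differed by 0.20. By adjusted p alone, 11 of the 12 were higher and 1 was lower. The lower one was Mertk, from 5442 and 5396 normalized counts in sham to 4330 and 4286 after PNX (log2 fold change -0.33). Markers of all leukocytes moved less, with 0 of 6 called, a median of 0.18 and a summed level of 315 and 313 FPKM in sham and 352 and 356 after PNX, and Ptprc differed by -0.00 (adjusted p = 0.905). Of the 12 endothelial genes 0 were called, 9 were lower and 2 higher by adjusted p alone, and the median was -0.22. Their summed level was 2592 and 2621 FPKM in sham and 2214 and 2217 after PNX, with Pecam1 at -0.01 (adjusted p = 0.636), Cdh5 at -0.22 and Eng, the most changed, at -0.54. No marker of these 3 lists was at 0 in every library.

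The levels were also set against the summed pan-macrophage FPKM of the same library, of which Lyz2 alone made up 93.0% and 93.0% in sham and 83.4% and 83.3% after PNX, so that these are mostly ratios to Lyz2. Cd5l amounted to 0.0211% and 0.0180% of that sum in sham and to 0.727% and 0.710% after PNX. Alox15 went from 0.0953% and 0.105% to 0.322% and 0.342%, and Prg4 from 0.0801% and 0.0805% to 0.261% and 0.263%. Gata6 went on this scale from 0.255% and 0.267% to 0.306% and 0.327%, and Garnl3 went from 0.150% and 0.153% to 0.137% and 0.138%. A fit with the libraries scaled to the 12 pan-macrophage genes, each weighted alike, placed the median of all genes at a log2 fold change of -1.36, and relative to that median the 9 genes lay where they lay with all genes, since scaling moves all genes of a library alike. Read against 0, and so against the 12 macrophage genes, Cd5l was at a log2 fold change of 4.19 in that fit and was past the fold threshold. Alox15 was at 0.73, Prg4 at 0.70, F5 at 0.25, Timd4 at 0.22 and F10 at 0.11, none of them past it, while Gata6 was at -0.73, Garnl3 at -1.14 and Icam2 at -1.45. The part of a change in macrophage number in the results was not tested.

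**Figure D4:**
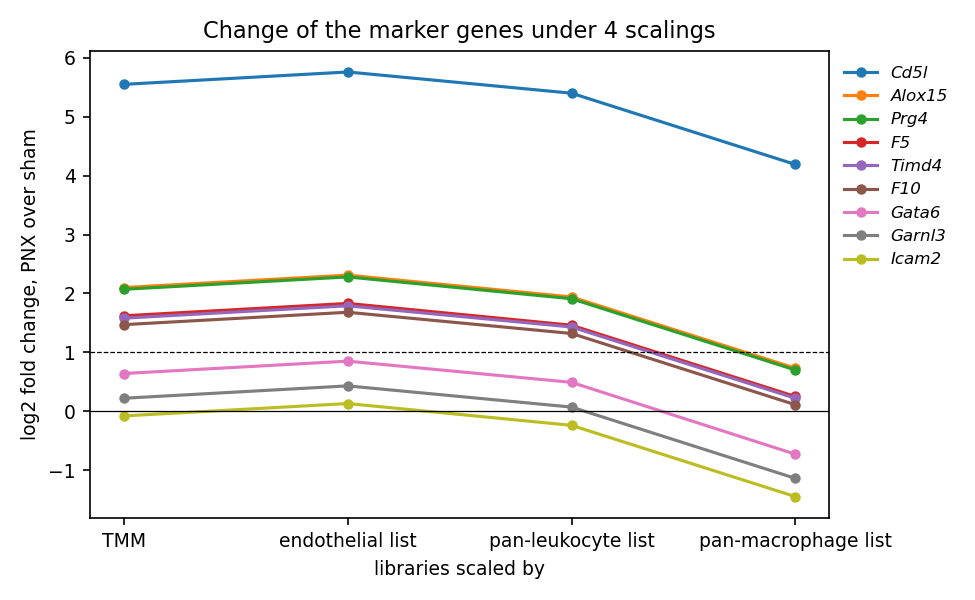
Log2 fold change, PNX over sham, of each of the 9 genes with the libraries scaled to all genes, to the endothelial list, to the pan-leukocyte list and to the pan-macrophage list. The lines run in parallel because scaling moves all genes of a library alike, and with the pan-macrophage list Cd5l alone stays above the dashed line at 1.

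Other genes known from Gata6-dependent cavity macrophages were called higher in 7 of 13 cases and lower in 0, with a median log2 fold change of 1.14 and a summed level of 158 and 156 FPKM in sham and 380 and 380 after PNX. Vsig4, a complement receptor of resident macrophages, had 9.06 and 12.2 normalized counts in sham and 493 and 426 after PNX, a rise of 5.43 on the log2 scale (SE 0.18, adjusted p = 4.6e-36), close in size to that of Cd5l. Serpinb2, a protease inhibitor, rose by 3.98 (106 and 104 to 1667 and 1647 normalized counts), and Cxcl13, a chemokine that draws B cells into the cavities, by 3.01 (107 and 102 to 859 and 821). Fn1, fibronectin, which many cell types make, was the most abundant of the list and rose by 2.22. It went from 43.5 and 44.0 FPKM in sham to 204 and 206 after PNX, a large part of the rise in the summed level. Selp, Slpi and Naip1 were also called higher. Rarb, a retinoic acid receptor, had 452 and 421 normalized counts in sham and 284 and 300 after PNX, a log2 fold change of -0.59 (adjusted p = 1.0e-08). Genes of the monocyte-derived small cavity macrophages were called higher in 2 of 10 cases, Retnla (2.28) and Clec10a (1.17, a call lost with glmTreat, a test against the fold threshold itself), and lower in 0, with a median of 0.09 and a summed level of 942 and 952 FPKM in sham and 1102 and 1090 after PNX. Ccr2 was at 0.86, and Cd74, the most abundant, at 0.16. By adjusted p alone, 6 of the 10 were higher and 2 were lower, Cd226 (-0.36) and Cd209a (-0.28).

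Cd5l and Timd4 are also carried by other resident macrophages, and markers of these moved in both directions. Of 7 genes of tissue macrophages marked by Timd4, Lyve1 and Folr2, 3 rose, namely Folr2 (95.1 and 82.6 to 592 and 569 normalized counts, log2 fold change 2.70), Cd163 (2.49) and F13a1 (1.48). Lyve1, which lymphatic and other endothelium also makes, fell by 1.14 on the log2 scale, a call that was lost when libraries were scaled to the endothelial genes. The median of that list was 0.70, and its summed level was 337 and 336 FPKM in sham and 254 and 255 after PNX. Of the 7 liver and spleen macrophage genes 6 were tested, and 1 rose, Hmox1 (1.55), with 0 lower, a median of 0.38 and a summed level of 231 and 233 FPKM in sham and 277 and 271 after PNX. Spic, the factor that defines red pulp macrophages, was at 0.64 (16.3 and 19.4 to 27.5 and 27.9 normalized counts, adjusted p = 0.0738), Vcam1 was at 0.44, Id3, the most abundant, was at -0.01, and Clec4f, which defines Kupffer cells, had 0, 1.02, 3.93 and 2.23 normalized counts in the 4 libraries. Of 11 alveolar macrophage genes 4 were called higher and 1 lower, with a median of 0.14 and a summed level of 1103 and 1093 FPKM in sham and 2331 and 2288 after PNX. By adjusted p alone, 6 were higher and 4 lower. Marco, a scavenger receptor (2.99), Chil3, a chitinase-like lectin and the most abundant, Fabp4, a fatty acid binding protein (1.19), and Fabp5 (1.06) were the 4 called higher. Chil3 alone went from 587 and 585 FPKM in sham to 1692 and 1645 after PNX, so the summed level mostly follows this gene. Ear1 was the gene called lower, at -1.09, a call lost with endothelial scaling and with glmTreat.

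Mesothelial genes, which mark the lining that supplies retinoic acid and also makes Prg4 and Gata6, were called higher in 7 of 11 cases and lower in 0. Their median log2 fold change was 1.08 and their summed level was 125 and 126 FPKM in sham and 226 and 228 after PNX. Wt1, a transcription factor of mesothelium, rose by 2.68 (145 and 163 to 976 and 998 normalized counts), Msln, mesothelin, by 1.97 (2220 and 2245 to 8804 and 8684) and Bnc1 by 1.35, while Krt19, the most abundant in sham, was at 0.24. No gene of the list was at 0 in every library. Prg4 and Gata6 rose or were higher in the same PNX libraries, and the part of mesothelial RNA in their values was not tested.

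Other cell types known to carry these genes gave the following values. Of 4 eosinophil genes, cells that carry Alox15, 1 was called higher, Ccr3 (54.4 and 55.0 to 198 and 195 normalized counts, log2 fold change 1.84), with Epx at 0.93, Prg2 at 0.71, a median of 0.82 and a summed level of 3.53 and 2.80 FPKM in sham and 5.48 and 5.41 after PNX. Il5ra went the other way, from 82.4 and 73.4 to 59.0 and 61.3 normalized counts (log2 fold change -0.38, adjusted p = 0.0662). Without the first sham library, 2 of the 4 were called. Of 8 megakaryocyte and platelet genes, cells that carry F5, Pf4 was called higher (1.34) and 0 lower, the median was 0.26, and the summed level was 30.3 and 30.3 FPKM in sham and 50.7 and 48.7 after PNX, with Itga2b at 0.38 and Gp1ba at 0.27. Of 8 B cell genes, which include the B cells that share the cavities with these macrophages, 0 were called, 7 were lower by adjusted p alone, and the median was -0.82, with Cd5 at -0.88, Cd79a at -0.87, Pax5 at -0.85 and Zbtb32 at 0.77. Their summed level was 59.8 and 59.4 FPKM in sham and 36.0 and 35.2 after PNX. The parts of these cells in the Alox15 and F5 values were not tested.

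**Figure D5:**
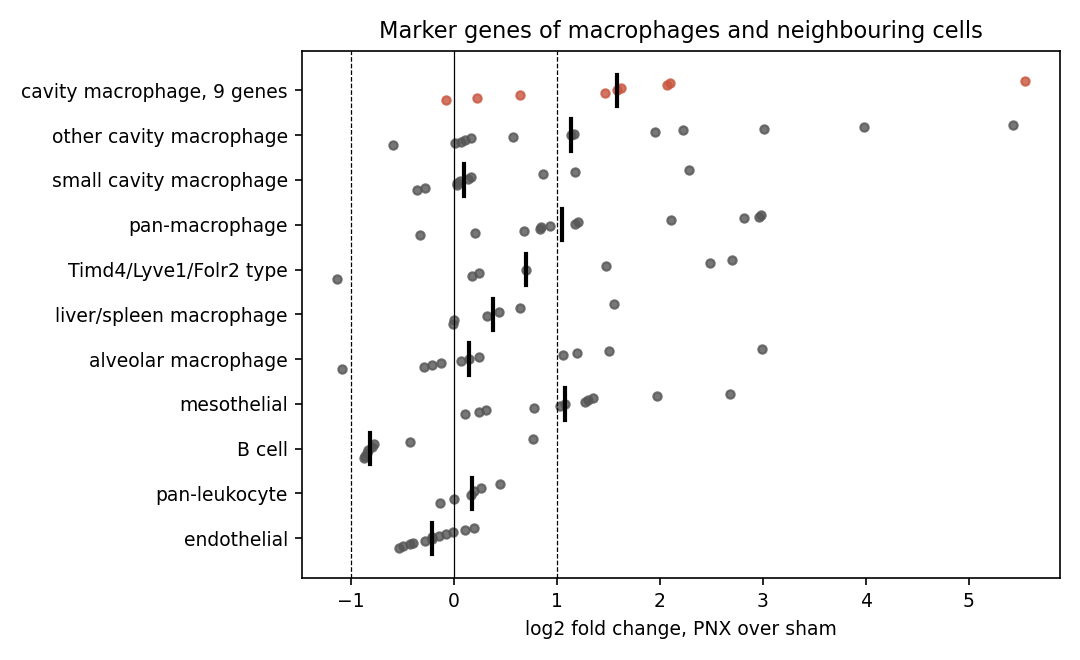
Log2 fold changes, PNX over sham, of the tested genes of each cell type list, each point 1 gene and the bar the median of the list, with lines at 0 and at 1 and -1. The medians of the cavity macrophage genes (1.58), further cavity macrophage genes (1.14), mesothelial genes (1.08) and pan-macrophage genes (1.05) lie above 1, and that of B cell genes (-0.82) is the lowest.

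The pathways around the 9 genes moved unevenly. Among 14 genes of retinoic acid synthesis, reception and breakdown, upstream of Gata6 in cavity macrophages, 3 were called higher and 2 lower, with a median of 0.01. Aldh1a2, the retinoic acid synthesis enzyme of mesothelium, rose by 1.27 (892 and 969 to 2198 and 2293 normalized counts), and Cyp26a1, a retinoic acid hydroxylase, by 2.80 from 4.53 and 6.12 to 43.2 and 31.2. Aldh1a3 was the other gene called higher, at 2.01. Cyp26b1, a hydroxylase that endothelium can make, fell by 7.35 on the log2 scale, from 60155 and 61313 to 377 and 365 normalized counts, and Lrat, which esterifies retinol, fell by 3.09. Of 7 genes of the GATA family and its cofactors beside Gata6, Gata4 rose by 1.62 (48.9 and 39.8 to 147 and 127 normalized counts), Zfpm2 was called higher at 1.01, Gata5 was at 0.63 and Gata2, the most abundant, at -0.63, with a median of 0.35. With glmTreat or with pan-leukocyte scaling, 1 of the 7 was called higher in place of 2. With pan-macrophage scaling, 0 were called higher and 4 lower. Zfpm2 lay between 0.93 and 1.09 with 1 library left out.

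Among 13 genes for uptake of dead cells, the pathway of Timd4, 0 were called higher and 1 lower, with a median of 0.08. That gene, Havcr1, a relative of Timd4, was at -1.11 on low counts (22.6 and 34.7 normalized counts in sham, adjusted p = 0.00474). With 1 library left out it lay between -1.49 and -0.79. The call was lost with the DESeq2 Wald test (log2 fold change -1.14, adjusted p = 0.0851), with glmTreat and with endothelial scaling. With a mean of at least 50 counts, 0 genes of the list were called lower. Cd36, the most abundant, was at -0.59 and Stab2 at 0.52. In the scavenger receptor family of Cd5l, 3 of 8 genes rose and 1 fell, with a median of 0.74 and a summed level of 51.4 and 52.5 FPKM in sham and 145 and 148 after PNX. Msr1 (3.14), Marco (2.99) and Cd163 (2.49) were the 3 that rose, all below Cd5l in log2 fold change, Cd6 of lymphocytes was the one that fell, at -1.08, a call lost under the same 2 alternatives as that of Ear1, and Colec12 was at 0.60.

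Of 13 tested genes of the clotting cascade and its brakes, other than F5 and F10, 2 were called higher and 0 lower, with a median of 0.16. F2rl3, a thrombin receptor, rose by 1.71 and F13a1, the crosslinking factor, by 1.48, while Procr was at 0.94 and Thbd, the most abundant, at -0.55. F7, the partner of tissue factor that activates F10, was named after its value was seen and was at 0.81. Among 8 lipoxygenases and partners beside Alox15, 0 were called, with a median of 0.30. Alox12e was at 1.11 (8.15 and 6.12 to 13.8 and 17.8 normalized counts, adjusted p = 0.0298), Ltc4s at 0.69, Alox5ap at 0.68 and Lta4h at 0.04. Of 7 relatives and ligands of Icam2, 1 was called higher, the integrin subunit Itgam (2.11), with a median of 0.14, Icam5 at 0.54, Itgb2 at 0.45 and Icam1, the most abundant, at 0.04. Of 10 GTPase-activating proteins of the Rap and Ral family, to which Garnl3 is related, 0 were called, and the median was -0.27, with Rap1gap at -0.48, Sipa1l1 at -0.41, Sipa1l2 at -0.36 and Sipa1 at -0.19.

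The genes nearest in pattern over the 4 libraries to the 3 most changed cavity macrophage genes had log2 fold changes like theirs. Likeness was measured as the Euclidean distance between log2 normalized counts centred on each gene's mean, over 13402 genes that averaged 100 normalized counts or more, and it is a description over 4 libraries. Nearest to Cd5l were Cfd (distance 0.26, log2 fold change 5.77), a protease of the complement system known from fat cells, Chl1 (0.39 and 5.16), a neural adhesion molecule, and Prss35 (0.48 and 5.12). Alox15 had as neighbours Itgam (0.063 and 2.11), an integrin subunit known from myeloid cells, Col1a2 (0.069 and 2.08), a chain of collagen I, and Fcrls (0.078 and 2.03). For Prg4 they were Cfb (0.025 and 2.09), a complement factor, Cpxm1 (0.029 and 2.09) and Col1a2 (0.041).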

How the data were processed

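RNA from CD31-selected lung cells was made into libraries with the TruSeq Stranded mRNA kit and sequenced as paired ends. Per the labels and methods, the authors aligned reads with STAR to mm10. The counting program and its use of strand are not given in the sources used here. The deposited tables give, for each of 33068 transcripts, read counts, which are not normalized, together with FPKM and TPM values computed by the authors. TPM was not used. Positions came from RefSeq on GRCm38.p6, the assembly of mm10, and exon overlaps from GENCODE.

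Each symbol was represented by its most counted transcript. Counts were filtered with filterByExpr, scaled by TMM and tested with edgeR 4.0.16 (quasi-likelihood F test, R 4.3.3), with Benjamini-Hochberg adjustment over 16208 genes. Thresholds on log2 fold change (1) and adjusted p (0.01) follow the study. SE is the log2 fold change divided by the square root of F. Counts on the 2 Prg4 transcripts were compared by subtraction, taking the exons of the shorter as lying within the longer, as their lengths of 1884 and 4278 bases imply with a common RefSeq 3′ end, although GENCODE places 53 bases of the shorter outside the longer. The test was checked on simulated counts.

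All 9 genes were named. From each list, the 3 tested genes with the largest absolute log2 fold change and the one with the most sham counts were named, with Pecam1, Cdh5 and Ptprc, and the 3 nearest genes of 3 members. Xist, Clec4f, F7, Mertk, Il5ra, Cd226, Cd209a, the genes that complete a count of calls and genes sharing exons with a member were named after their values were seen. The cavity macrophage genes and all lists were chosen with earlier results of these data known. Same-numbered libraries came from different mice. Alternatives were other scalings, filters, tests (DESeq2 1.42.0, glmTreat), thresholds, summed transcripts, a replicate block and leaving out each library.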

Additional observations from a re-analysis of the deposited data

How the results depend on the processing

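The depth and 2 libraries per group limit what can be seen for genes with few counts, such as Clec4f and Havcr1. The 6 calls among the cavity macrophage genes were kept under each alternative except scaling to the pan-macrophage list, where 1 was higher and 2 were lower (the cause is the scaling itself, which moves the median of all genes to -1.36). With no fold threshold 1 was lower. Over all genes, 957 were higher and 269 lower. The number higher was 270 with pan-macrophage scaling, 604 with glmTreat and 4745 with no fold threshold. The number lower was 102 with endothelial scaling, 484 with pan-leukocyte scaling, 13295 with pan-macrophage scaling, 160 with a mean of at least 50 counts, 39 with glmTreat and 4513 with no fold threshold. With the replicate block, 6 of the 9 genes were higher, Cd5l at 5.55, and no call among the 9 genes changed. The correlation of the deviations of same-numbered libraries was 0.02. With 2 libraries per group that differ little, this value cannot show whether same-numbered libraries shared a batch. Leaving out 1 library gave Cd5l 5.45 to 5.68, Timd4 1.47 to 1.72 and Gata6 0.60 to 0.69. Of the 40 counts of list genes called, 32 moved by over 1.5 times with pan-macrophage scaling, 31 with no fold threshold, 6 with endothelial scaling, 5 with glmTreat and at most 3 under any other alternative.

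Directions turned as follows, in log2 fold change. With endothelial scaling, which moved the median of all genes to 0.21, Icam2 was at 0.13, Pecam1 0.20, Ptprc 0.21, Id3 0.20 and Sipa1 0.02. With pan-leukocyte scaling (median -0.15) Lta4h was at -0.12 and Icam1 -0.11. With pan-macrophage scaling Gata6 was at -0.73, Garnl3 -1.14, Lyz2 -1.16, Clec10a -0.19, Ccr2 -0.51, Cd74 -1.20, Spic -0.72, Vcam1 -0.92, Fabp4 -0.18, Bnc1 -0.02, Krt19 -1.13, Epx -0.43, Prg2 -0.66, Pf4 -0.02, Itga2b -0.99, Gp1ba -1.09, Itgb2 -0.92, Cd52 -1.10, Lcp1 -1.17, Stab2 -0.85, Colec12 -0.76, Procr -0.43, Alox12e -0.24, Ltc4s -0.68, Alox5ap -0.69, Lta4h -1.33, Zfpm2 -0.36, Gata5 -0.74, Icam5 -0.82 and Icam1 -1.32. Ptprc was at 0.00 with library size alone and with summed transcripts, and between -0.02 and 0.01 with 1 library left out. Id3 was between -0.03 and 0.01 with 1 library left out.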
